A study of Mus musculus with 43 samples.

Results

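The proteasome genes were taken as the protein-coding mouse genes of the RefSeq table whose symbol begins with Psma, Psmb, Psmc, Psmd, Psme, Psmf or Psmg followed by a number. The rule found 51 genes of the 21523 protein-coding genes placed on chromosomes 1 to 19 and X. They comprised 8 alpha and 7 constitutive beta genes of the catalytic core, 4 inducible or tissue-specific beta genes, 6 ATPase genes, 14 non-ATPase genes, 5 activator genes, 1 inhibitor gene and 4 assembly chaperone genes. The rule also took Psmc3ip and Psme3ip1, named for proteins that interact with a subunit, which are not subunits themselves. The measurement was the presence of regions bound by EKLF in chromatin at each gene, in WT and in Nan/+ embryos.

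The series held 43 samples in 19 groups, all from fetal liver of mouse embryos at day E13.5 of development. EKLF was immunoprecipitated from WT embryos of the Nan strain, which carry an unchanged Klf1 gene, and from their Nan/+ littermates, which carry 1 Nan allele of Klf1 beside 1 WT allele. The Nan allele is present in every cell of the Nan/+ embryo, and the lists do not tell the products of the alleles apart. Livers were dispersed into single cells, and the labels call the cells primary erythroid cells. Each genotype had 3 EKLF libraries, which the authors combined into 1 region list. The lists used here hold no value per library, so no error or test between genotypes is given, and all counts below describe these lists. The WT libraries held 74140385 to 103170594 tags and the Nan/+ libraries 72023512 to 100763687, per the file headers. In all, 9181 regions were listed for WT and 15564 for Nan/+. Regions were called at a size of 125 bp with peaks kept at least 250 bp apart in WT, and at 175 bp and 300 bp in Nan/+, per the file headers. Genotype and calling settings therefore cannot be told apart. The erythroid loci Slc4a1, Alas2, Hbb-bt, Hbb-bs, Epb42, Ank1 and Klf1 had regions in both lists, and of 8 loci of other liver cells Alb, Adgre1, Pecam1 and Itga2b had none, Kdr and Pf4 had 1 Nan/+ region each, and Afp and Cd68 had regions in both.

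EKLF, the product of Klf1, is a zinc-finger transcription factor of red cell precursors that binds CACCC-type sequences, and Nan alters one of its zinc fingers. The proteasome degrades proteins tagged with ubiquitin. Its core is a stack of rings of alpha and beta subunits, with the proteolytic sites in some of the beta subunits, and its regulatory particle holds a ring of ATPases that unfold substrates together with non-ATPase subunits that receive and deubiquitinate them. Maturing erythroid cells rely on protein degradation while they clear organelles and remove unpaired globin chains.

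Promoter sequences are shown first, because many of the regions at these genes lay at promoters. The RefSeq promoter table of GRCm38.p6, the assembly of mm10, held a window of 250 bases before and 50 bases from the start site onward for 43 of the 51 genes. Psma8, Psmb1, Psmb2, Psmb7, Psmc3, Psmd3, Psmd7 and Psmg2 had none. The 250 upstream bases are printed for the 7 genes whose window overlapped a region in both lists, in order of their widest region, then for Psme2, whose window overlapped the widest region among those with a WT region alone. Psma4 was added after its values were seen, as the gene with the widest region among windows overlapping a Nan/+ region alone. Sequences run 5′ to 3′ in the direction of the gene. Capitals mark matches to CCNCNCCC, the CACCC-type motif of EKLF, on either strand. The same letters also match GC boxes and runs of C.
Psmg4, chr13:34162714-34162963, plus strand: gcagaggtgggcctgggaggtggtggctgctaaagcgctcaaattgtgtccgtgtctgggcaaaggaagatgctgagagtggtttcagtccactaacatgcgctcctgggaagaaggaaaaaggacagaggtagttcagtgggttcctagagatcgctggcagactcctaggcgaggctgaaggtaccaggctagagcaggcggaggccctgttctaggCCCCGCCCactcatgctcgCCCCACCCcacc
Psmc2, chr5:21785025-21785274, plus strand: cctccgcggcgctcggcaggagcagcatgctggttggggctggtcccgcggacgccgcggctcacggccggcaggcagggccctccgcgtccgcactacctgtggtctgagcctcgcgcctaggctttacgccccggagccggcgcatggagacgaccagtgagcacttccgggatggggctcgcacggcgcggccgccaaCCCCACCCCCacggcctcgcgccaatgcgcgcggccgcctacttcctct
Psma3, chr12:70974373-70974622, plus strand: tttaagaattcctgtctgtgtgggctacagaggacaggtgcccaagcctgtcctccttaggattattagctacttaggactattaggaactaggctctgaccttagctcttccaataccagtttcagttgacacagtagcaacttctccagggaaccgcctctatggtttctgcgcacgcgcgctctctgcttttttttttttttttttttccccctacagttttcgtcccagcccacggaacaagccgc
Psmg1, chr16:95990961-95991210, minus strand: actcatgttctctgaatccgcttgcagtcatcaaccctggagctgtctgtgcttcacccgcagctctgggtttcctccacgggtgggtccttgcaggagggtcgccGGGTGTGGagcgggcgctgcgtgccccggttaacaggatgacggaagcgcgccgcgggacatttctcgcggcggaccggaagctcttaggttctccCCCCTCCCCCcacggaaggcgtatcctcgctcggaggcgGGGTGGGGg
Psmd14, chr2:61711444-61711693, plus strand: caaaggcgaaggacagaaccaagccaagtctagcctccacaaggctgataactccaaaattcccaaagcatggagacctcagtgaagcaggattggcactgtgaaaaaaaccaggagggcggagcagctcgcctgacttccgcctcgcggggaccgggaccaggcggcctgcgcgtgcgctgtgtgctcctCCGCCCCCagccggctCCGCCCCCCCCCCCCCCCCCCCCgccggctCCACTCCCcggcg
Psmd12, chr11:107479278-107479527, plus strand: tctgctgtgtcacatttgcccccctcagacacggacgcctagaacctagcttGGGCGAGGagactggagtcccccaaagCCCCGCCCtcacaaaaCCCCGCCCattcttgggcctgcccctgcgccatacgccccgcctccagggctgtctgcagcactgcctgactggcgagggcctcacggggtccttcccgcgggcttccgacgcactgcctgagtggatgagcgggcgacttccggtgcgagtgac
Psme1, chr14:55578244-55578493, plus strand: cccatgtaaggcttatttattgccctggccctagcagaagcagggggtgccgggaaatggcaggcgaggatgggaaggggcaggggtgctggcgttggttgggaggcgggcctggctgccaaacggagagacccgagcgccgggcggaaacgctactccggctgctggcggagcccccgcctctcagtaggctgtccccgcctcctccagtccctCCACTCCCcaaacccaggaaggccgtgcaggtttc
Psme2, chr14:55591102-55591351, minus strand: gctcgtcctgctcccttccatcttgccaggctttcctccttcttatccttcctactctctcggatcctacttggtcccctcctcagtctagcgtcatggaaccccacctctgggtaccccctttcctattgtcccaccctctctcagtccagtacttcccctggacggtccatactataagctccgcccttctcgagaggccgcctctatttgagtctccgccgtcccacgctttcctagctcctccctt
Psma4, chr9:54950609-54950858, plus strand: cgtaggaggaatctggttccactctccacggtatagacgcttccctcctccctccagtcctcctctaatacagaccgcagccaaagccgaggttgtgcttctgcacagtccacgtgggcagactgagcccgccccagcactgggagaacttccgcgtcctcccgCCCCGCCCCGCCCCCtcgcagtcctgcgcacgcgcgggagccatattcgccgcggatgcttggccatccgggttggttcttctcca

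These 9 sequences differ in what the motif matched. In Psmg4 the matches CCCCGCCC and CCCCACCC began at positions -31 and -12, counted from the start site with bases before it negative. In Psmc2 a CCCCACCC began at -49. Psmg1 had matches on both strands, among them GGGTGTGG, the reverse strand of a CACCC-type box, at -144. Psmd12 held CCCCGCCC at -171 and -155 and GGGCGAGG at -198. The 16 matches of Psmd14 lay mostly in 1 uninterrupted run of C, where each shift by a base counts as a further match. Psma3 and Psme2 had no match in the upstream bases, and the start site of each lay under a WT region.

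In the gene body and 10 kb flanks, 30 of the 51 proteasome genes (58.8%) had a WT region and 31 (60.8%) had a Nan/+ region. Over all protein-coding genes the shares were 33.5% in WT and 37.5% in Nan/+. Proteasome genes were shorter than the rest, with a median length of 11567 bp against 17374 bp, so their shares were also set beside other genes of the same 10 length strata. Those had a WT region in 34.4% and a Nan/+ region in 35.3%, which for 51 genes corresponds to 17.6 and 18 genes. The proteasome share stood above both references in each genotype, as a description of 1 list per genotype without a test. Regions in both lists were found at 19 genes (37.3%, against 23.5% of all genes and 22.7% at the same lengths). Regions in WT alone were found at 11 genes (21.6%, against 10.1% and 11.8%), and regions in Nan/+ alone at 12 genes (23.5%, against 14.1% and 12.6%). The remaining 9 genes had no region in either list. Of the regions counted, 33 of 43 in WT and 28 of 49 in Nan/+ were also assigned to another gene. With each region given to its nearest gene alone, 26 proteasome genes had a WT region and 23 a Nan/+ region. No share over all genes is given for that assignment.

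**Figure D1:**
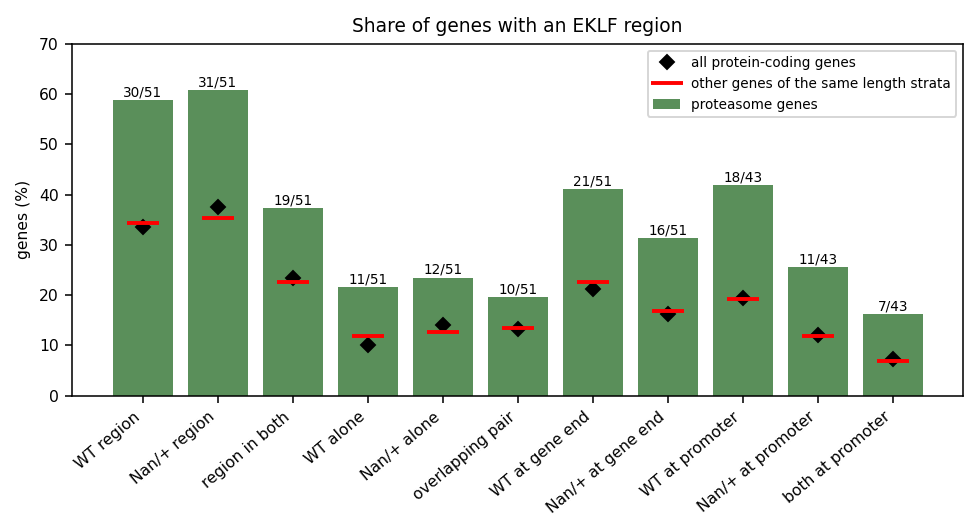
Share of genes (%) meeting each call. Green bars are the proteasome genes with their counts above, black diamonds all protein-coding genes, and red dashes other genes of the same length strata. Each bar stands above both marks, from 58.8% against 33.5% and 34.4% for a WT region to 16.3% against 7.35% and 6.94% for a promoter window that overlaps regions in both lists.

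The similar number of genes in each list did not mean the same regions. A WT region that overlapped a Nan/+ region by at least 1 bp was found at 10 proteasome genes (19.6%), beside 13.3% of all genes, and the same lengths gave 6.91 genes. Among the 43 WT regions at these genes 11 overlapped a Nan/+ region (25.6%), close to the 24.5% of the whole WT list. Among the 49 Nan/+ regions 12 overlapped a WT region (24.5%), beside 14.7% of the whole Nan/+ list. The 9 genes that had a region in each list without overlap were Psmb2, Psmb7, Psmc3, Psmd11, Psmd14, Psme3, Psme4, Psmc3ip and Psme3ip1. Over all protein-coding genes, 5049 had regions in both lists and 2866 a WT region overlapping a Nan/+ region, beside 19 and 10 here. Regions without overlap were thus common outside this set as well. The gap between their nearest edges ran from 34 bp at Psmd14 to 22851 bp at Psme4.

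**Figure D2:**
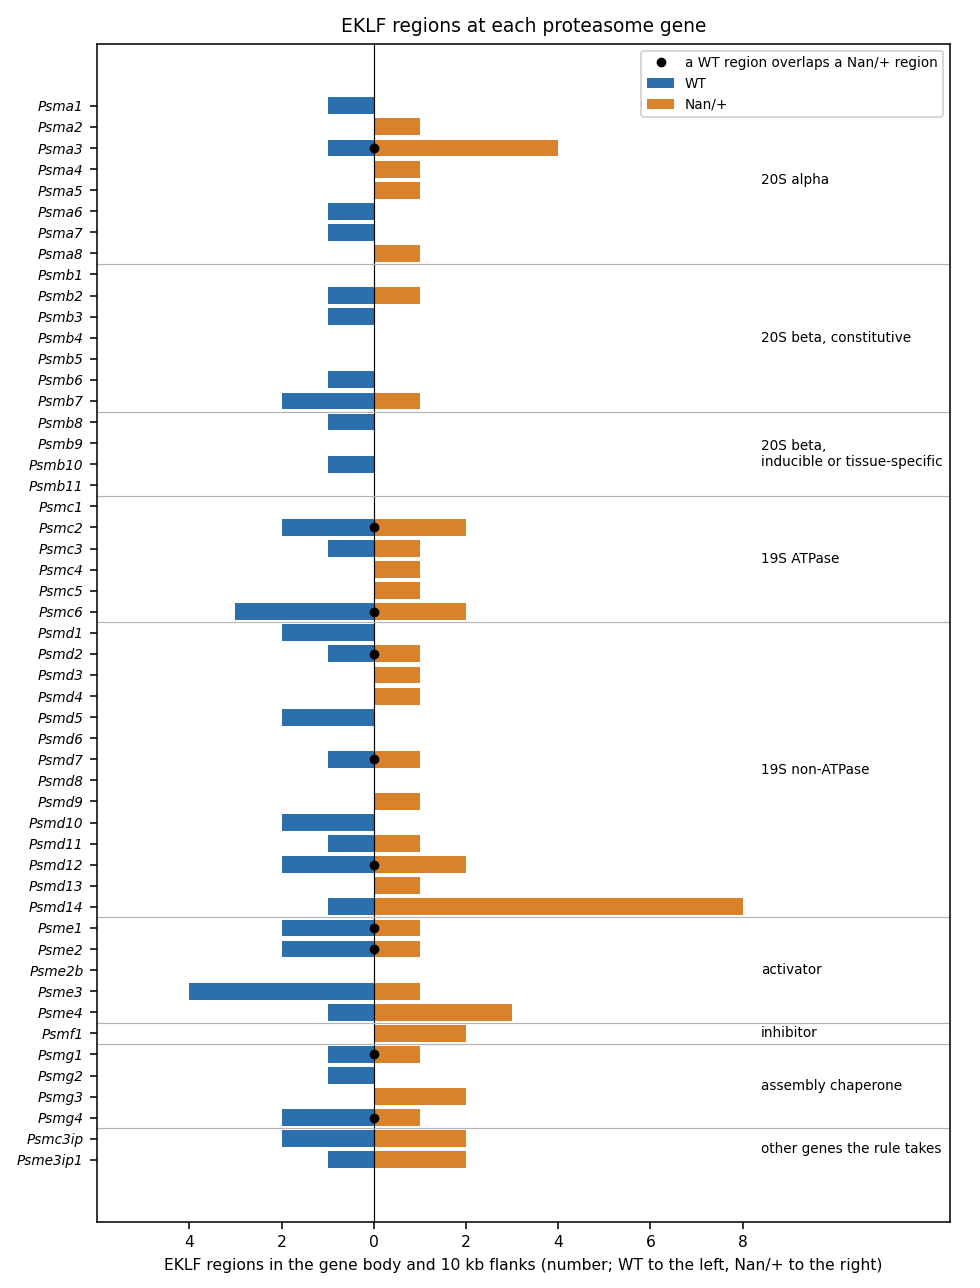
Number of EKLF regions at each of the 51 proteasome genes, with WT to the left and Nan/+ to the right of the line, grouped by role. Black points mark the 10 genes at which a WT region overlaps a Nan/+ region. Most genes have 0 to 2 regions per list, and Psmd14 has 8 Nan/+ regions and 1 WT region.

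A larger share of these regions than of all regions near genes lay at gene ends. A WT region was centred within 1 kb of either end of its gene at 21 proteasome genes (41.2%), beside 21.3% of all genes and 22.6% at the same lengths. For Nan/+ these were 16 genes (31.4%), beside 16.3% and 16.8%. Counting the ends of any protein-coding gene, 30 of the 43 WT regions (69.8%) and 22 of the 49 Nan/+ regions (44.9%) lay at a gene end. Among all regions assigned to a gene the shares were 50.7% in WT and 25.3% in Nan/+. These shares of regions, unlike the counts of genes above, were not matched for gene length, and proteasome genes were shorter than the rest. Of the overlapping regions, 9 of 11 in WT and 10 of 12 in Nan/+ lay at a gene end, beside the 30 of 43 and 22 of 49 above. This share is not given for overlapping regions of the whole lists, so it cannot be called particular to proteasome genes.

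Within the promoter windows, 18 of 43 proteasome windows (41.9%) overlapped a WT region, 11 (25.6%) a Nan/+ region and 7 (16.3%) a region in both lists. Over all 17274 windows the shares were 19.5%, 12.1% and 7.35%. Windows of the same GC content, a comparison added after the data were seen, gave 21.9%, 13.4% and 7.78%. Among the 43 genes with a window, a WT region covered the start site itself in 17 and a Nan/+ region in 8. WT regions centred within 1 kb of the start numbered 19, at a median of 0 bp from it (-396 to 574), and the 14 Nan/+ regions had a median of -58 bp (-674 to 202), where a negative position lies upstream. Start sites covered and distances from the start are not given for all genes. Neither can therefore be called particular to proteasome genes. Some regions at a gene end, the start or the far end, also lay near a neighbour: 7 of 23 WT regions and 4 of 17 Nan/+ regions at either end of a proteasome gene were within 1 kb of an end of a gene outside the set.

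**Figure D3:**
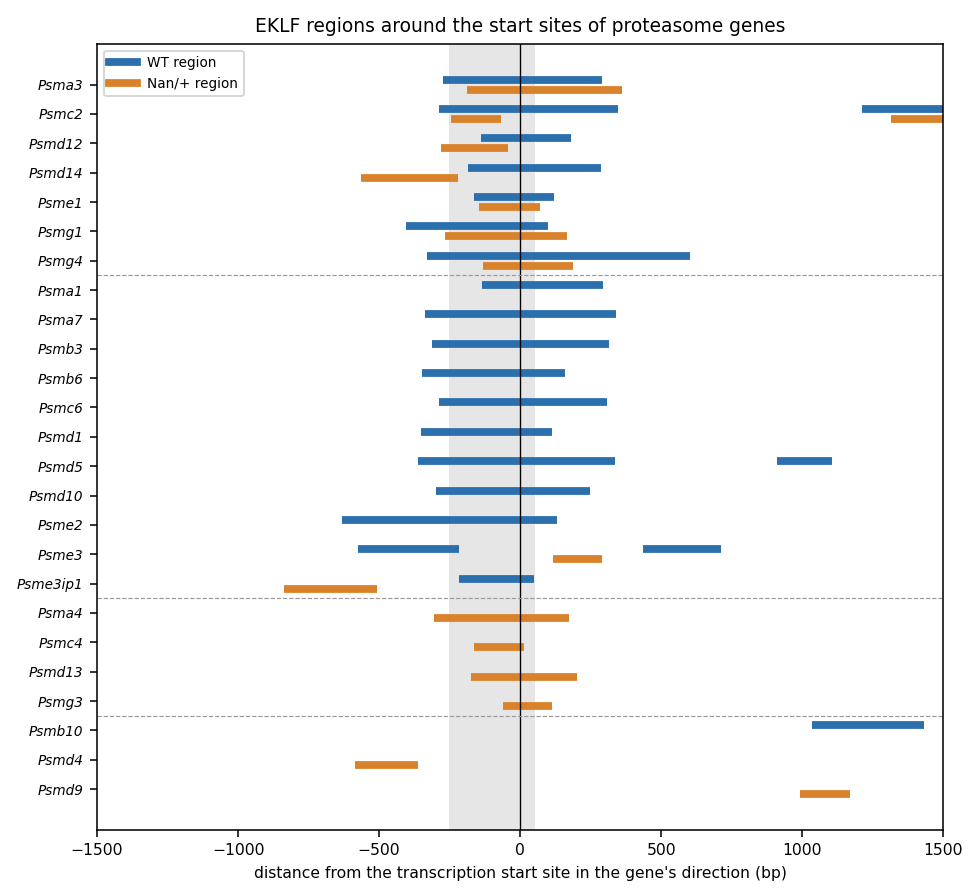
EKLF regions within 1500 bp of the start site (0 on the axis, in bp, positive in the direction of the gene) for proteasome genes with a promoter window. Blue bars are WT and orange bars Nan/+ regions, the grey band is the window from 250 bp before to 50 bp after the start, and dashed lines separate windows overlapping regions in both lists, in WT alone, in Nan/+ alone and in neither. WT bars cover the start site in 17 genes and Nan/+ bars in 8, and no share over all genes is given for this.

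The alpha genes encode the outer rings of the core, which gate the entry of substrates. Of 8, 4 had a WT region and 5 a Nan/+ region, and Psma3 was the only one with both. The counts by group here and below rest on 1 to 14 genes each. Their reference is the share over all genes, 33.5% in WT, 37.5% in Nan/+ and 23.5% in both. For WT alone it is 10.1%, for Nan/+ alone 14.1% and for an overlapping pair 13.3%. For a region at a gene end it is 21.3% in WT and 16.3% in Nan/+. Psma1, Psma6 and Psma7 had 1 WT region each and no Nan/+ region, whereas Psma2, Psma4, Psma5 and Psma8, the testis-specific alpha gene, had 1 Nan/+ region each and no WT region. At Psma3 the WT region (chromosome 12, 70974350 to 70974913, 564 bp) and the Nan/+ region (70974435 to 70974983, 549 bp) both covered the start site at 70974623. The RefSeq gene begins 5340 bp farther upstream, so this pair counted as inside the gene. Psma3 had 3 more Nan/+ regions, of 176, 176 and 228 bp, from 16816 to 30012 bp downstream of the start site.

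WT regions covered the start sites of Psma7 (680 bp wide, centred 0 bp from the start) and Psma1 (430 bp, centred 78 bp downstream). The Psma7 region also lay within 1 kb of an end of Ss18l1. The nearest Nan/+ region lay 146710 bp from the Psma1 gene and 11650 bp from Psma7. The order was the opposite at Psma4, where a Nan/+ region of 477 bp (chromosome 9, 54950555 to 54951031) covered the start site and the nearest WT region lay 216228 bp away. That region also lay within 1 kb of the ends of Hykk and AY074887. The WT region of Psma6 lay inside the gene, 14468 bp from its start. The Nan/+ regions of Psma2 and Psma5 lay in the flanks at the minimum width of 176 bp, with AW209491 and Sort1 as their nearest genes.

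The constitutive beta genes form the inner rings of the core. Of 7, 4 had a WT region, 2 a Nan/+ region, both of these also with a WT region, and none an overlapping pair. Psmb6, which encodes the caspase-like site, had a WT region of 506 bp over its start site and Psmb3 one of 627 bp centred 2 bp from it. The nearest Nan/+ regions lay 62661 bp from Psmb6 and 31489 bp from Psmb3. Psmb7, which encodes the trypsin-like site, had WT regions of 451 and 507 bp, the wider at a gene end, and a Nan/+ region of 221 bp in its flank nearest to Nek6. At Psmb2 the positions were reversed: the Nan/+ region (219 bp) lay 28 bp from a gene end and the WT region (161 bp, the narrowest WT region at these genes) 4557 bp inside the gene. Psmb1, Psmb4 and Psmb5, the last encoding the chymotrypsin-like site, had no region in either list. Psmb5 stood just outside the rule, with a WT region 10713 bp beyond its end.

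Among the inducible and tissue-specific beta genes, Psmb8 and Psmb10 of the immunoproteasome had 1 WT region each. The region of Psmb8 lay 4740 bp from the gene in the antigen-processing cluster, with Tap2 as its nearest gene, and that of Psmb10 lay inside the gene, 1234 bp from the start. Psmb9 of the immunoproteasome and Psmb11 of the thymus had none. No gene of these 4 had a Nan/+ region, beside 37.5% of all genes. With 4 short genes (median length 3753 bp) this count carries little weight.

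The ATPase genes encode the ring that unfolds substrates. Of 6, 3 had a WT region (Psmc2, Psmc3 and Psmc6) and 5 a Nan/+ region (the same 3 with Psmc4 and Psmc5), and Psmc1 had none. Psmc2 had overlapping pairs at 2 places on chromosome 5. At the start site, WT (21784987 to 21785621, 635 bp) and Nan/+ (21785031 to 21785206, 176 bp) overlapped, within 1 kb of an end of Dnajc2 as well. Inside the gene, centred 1396 and 1472 bp from the start, WT (21786488 to 21786855, 368 bp) and Nan/+ (21786590 to 21786904, 315 bp) overlapped again. The WT region was the wider one at the start, and the Nan/+ region there stood at the minimum width of its list.

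Psmc6 had 3 WT regions on chromosome 14, and its overlapping pair did not lie at its own promoter. The WT region at the start (45329535 to 45330133, 599 bp, centred 10 bp from the start site) had no Nan/+ counterpart. The pair lay 21311 and 21250 bp downstream of the start, nearest to Styx (WT 45350925 to 45351345, Nan/+ 45350902 to 45351246). The other WT region (45321802 to 45322204) was nearest to Ero1a, and a second Nan/+ region (45324367 to 45324542) was centred at -5370 bp. At Psmc3 the widest WT region of all proteasome genes (990 bp) lay 418 bp from a Nan/+ region of 176 bp. Psmc4 had a Nan/+ region of 176 bp centred at -74 bp from its start site, and the nearest WT region lay 129329 bp away.

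Psmc5 shows what the limit of 10 kb does to these counts. Its Nan/+ region (chromosome 11, 106272800 to 106273384, 585 bp, the widest Nan/+ region at these genes) was centred 9979 bp beyond the gene and counted. The WT region overlapping it (106272853 to 106273426) was centred 10027 bp beyond the gene and did not. Its place among genes with a Nan/+ region alone therefore rested on the 27 bp by which the WT centre missed the limit, and Tcam1 was the nearest gene to the counted region. The WT region at Psme1, centred 9824 bp beyond the gene, lay just inside the limit, and the Nan/+ region beyond Psmg4, at 10201 bp, just outside.

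Of the 14 non-ATPase genes, 8 had a WT region and 9 a Nan/+ region, 5 had both, 3 had WT alone, 4 had Nan/+ alone and 2 (Psmd6 and Psmd8, of the lid) had none. Psmd14 encodes the deubiquitinase that removes ubiquitin from substrates as they are taken in. It had 1 WT region and 8 Nan/+ regions on chromosome 2, the most of any proteasome gene in either list, in a gene of 88683 bp. The WT region (61711510 to 61711982, 473 bp) covered the start site at 61711694. The first Nan/+ region (61711131 to 61711475, 345 bp) lay upstream and ended 34 bp short of the WT region. Further Nan/+ regions began inside the gene at 61738917, 61746334, 61749946, 61767911, 61778835 and 61779348, with widths of 176 to 280 bp. The last (61800312 to 61800546, 235 bp) lay at the other end of the gene. None of the 8 overlapped a WT region.

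Psmd12, a lid subunit, had overlapping pairs at 2 places on chromosome 11. At the start, WT (107479390 to 107479708, 319 bp) and Nan/+ (107479249 to 107479486, 238 bp) overlapped with centres at 21 and -160 bp from the start site. The second pair (WT 107470382 to 107471280, Nan/+ 107470619 to 107470994) lay 8696 and 8721 bp from the gene, nearest to Pitpnc1. Psmd7, the lid partner of the Psmd14 protein, had a pair at a gene end on chromosome 8 (WT 107588103 to 107588750, Nan/+ 107588316 to 107588645). At Psmd2, a scaffold of the base, the pair on chromosome 16 (WT 20672555 to 20672835, Nan/+ 20672529 to 20672802) lay 9280 and 9251 bp beyond the gene and was nearest to Eif4g1.

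Psmd1, the other large scaffold of the base, had 2 WT regions and no Nan/+ region, with the region of 465 bp over its start site and the other nearest to 2810459M11Rik. Psmd5 and Psmd10, which act as chaperones of base assembly despite their names, had the same pattern, each with 2 WT regions, of which the wider (698 and 545 bp) covered the start site. Atg4a was the nearest gene to the region of 545 bp at Psmd10. Psmd9, another chaperone of the base, had a Nan/+ region alone, of 176 bp and 1080 bp inside the gene. Psmd13 of the lid had a Nan/+ region of 376 bp over its start site, within 1 kb of an end of Sirt3, and Psmd3 of the lid one of 510 bp at a gene end. Psmd4, a ubiquitin receptor, had a Nan/+ region of 223 bp centred at -474 bp from its start. Psmd11 had 1 region in each list, 9297 bp apart.

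Activators open the core independently of the ATPases. Of 5, 4 had regions in both lists, and Psme2b, a further gene named after Psme2, had none. Psme1 and Psme2, which encode the interferon-inducible activator, are neighbours on chromosome 14 and took the same regions. The overlapping pair (WT 55578332 to 55578613, Nan/+ 55578347 to 55578566) covered the start site of Psme1 and lay 8967 and 8983 bp beyond Psme2. The start site of Psme2, near an end of Rnf31, lay under a WT region of 762 bp (55590971 to 55591732), and no Nan/+ region overlapped it. The pair was thus counted for both genes, and at the start site of Psme2 itself the WT list alone had a region.

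Psme3, the nuclear activator, had 4 WT regions on chromosome 11 (101315638 to 101315995, 101316648 to 101316925, 101319351 to 101319612 and 101324935 to 101325424) and 1 Nan/+ region (101316328 to 101316503, 176 bp). The Nan/+ region lay between the first and second WT regions, 202 bp downstream of the start, and overlapped neither. Psme4, which encodes a large single-chain activator, had the reverse pattern, with 1 WT region (30845799 to 30846158) and 3 Nan/+ regions of 176 bp (30773355 to 30773530, 30812990 to 30813165 and 30822772 to 30822947), all inside the gene. Psmf1, the inhibitor gene, had 2 Nan/+ regions of 176 and 241 bp, neither at a gene end, and the nearest WT region lay 173405 bp away.

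The Psmg genes encode chaperones that assemble the alpha ring. Of 4, 3 had a WT region and 3 a Nan/+ region, in each case at a gene end. Psmg4 on chromosome 13 had the widest overlapping WT region (34162634 to 34163567, 934 bp), with the Nan/+ region lying wholly inside it (34162833 to 34163152, 320 bp) and both over the start site, and a further WT region of 193 bp near the end of Slc22a23. At Psmg1 on chromosome 16, WT (95990860 to 95991364, 505 bp) and Nan/+ (95990794 to 95991226, 433 bp) both covered the start site, and the WT region also lay near the end of Brwd1. Psmg2 had a WT region of 593 bp at a gene end, near an end of Cep76, and no Nan/+ region. Psmg3 had 2 Nan/+ regions of 176 bp, one of them over the start site, and no WT region. The genes for interacting proteins, Psmc3ip (2 WT and 2 Nan/+ regions, nearest to Coasy and Mlx) and Psme3ip1 (1 WT and 2 Nan/+ regions), had no overlapping pair.

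Region widths differed between the overlapping regions and the others, most clearly in Nan/+. The score deposited with each region was constant, so width was the one graded value, and it depends on the calling settings of each list. WT regions at proteasome genes had a median width of 451 bp (161 to 990 bp), against 396 bp in the whole list. Nan/+ regions had a median of 221 bp (176 to 585 bp), against 176 bp, and 21 of 49 (42.9%) stood at the minimum width, beside 54.5% of the whole list. The 12 overlapping Nan/+ regions had a median of 325 bp with 1 at the minimum, and the other 37 a median of 176 bp with 20 at the minimum. In WT the medians were 505 bp for the 11 overlapping regions and 440.5 bp for the other 32. Because 1 shared base counts as overlap, a wider region can overlap more easily, so this contrast is partly built in. Widths by overlap are not given for the whole lists. With Nan/+ regions above the minimum width alone, 6 proteasome genes rather than 12 had a Nan/+ region alone, and 15 rather than 11 had a WT region alone. With the lists cut to equal length by width, 7 had Nan/+ alone and 12 WT alone. Taking out Nan/+ regions can only lower the count with Nan/+ alone and raise the count with WT alone, in any set of genes. No share over all protein-coding genes is given at either setting, so these changes cannot be called particular to proteasome genes.

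**Figure D4:**
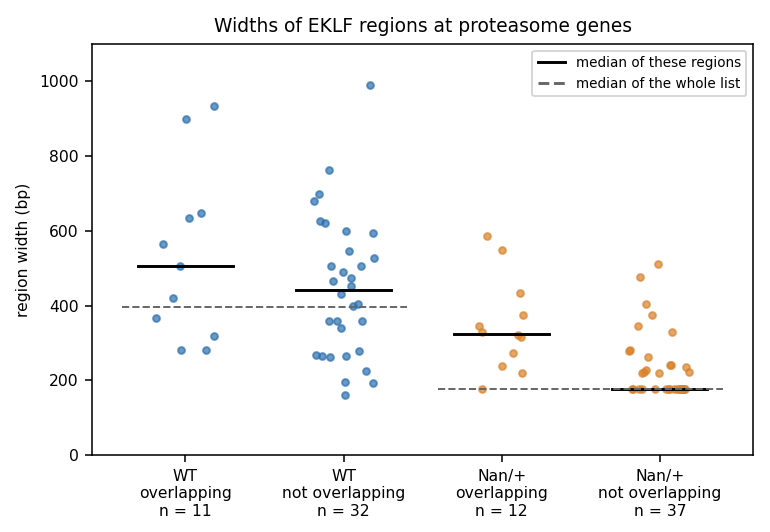
Width in bp of each EKLF region at a proteasome gene, by list and by overlap with the other list, with points spread sideways for visibility. Solid lines are medians of the points and dashed lines medians of the whole lists (396 bp in WT, 176 bp in Nan/+). Overlapping Nan/+ regions (median 325 bp) are spread over the range, and 20 of the 37 others lie on the minimum of 176 bp.

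Promoter windows were searched for motifs of EKLF and of other factors. The EKLF motif CCNCNCCC was found on either strand in 20 of 43 proteasome windows (46.5%), beside 56.4% of all windows and 64.3% of windows with the same GC content. A form that leaves the central bases free and fixes a G, CCNNGCCC, was found in 20 (46.5%), beside 47.8% and 53.8%, and 26 of the 64 matches of the first motif were also matches of the second at the same place. The first motif was present in 6 of 7 windows overlapping regions in both lists, 6 of 11 with WT alone, 2 of 4 with Nan/+ alone and 6 of 21 with neither. Over all genes these shares were 79.1%, 74.4%, 72.3% and 50.4%.

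The ETS motif CCGGAAG stood farthest above the other windows, in 15 of 43 (34.9%) beside 12.1% of all windows and 15.0% at the same GC content. It stood in 3 of the 7 windows under both lists (Psmc2, Psmd12 and Psmg1), 3 of 11 with WT alone, 2 of 4 with Nan/+ alone and 7 of the 21 under neither, such as Psmc1, Psmd6 and Psmd11. Over all genes these shares were 19.9%, 23.7%, 23.2% and 8.73%. The GATA motif NGATAA was in 9 windows (20.9%, beside 22.9% and 18.1%), CCAAT in 16 (37.2%, beside 39.6% and 40.0%), and the antioxidant element TGACNNNGC, recognised by the factors Nfe2l1 and Nfe2l2, in 6 (14.0%, beside 13.1% and 14.3%). Windows of proteasome genes had a median GC content of 57.3%, against 56.3% in all. A match describes letters in these windows and is not a measured site.

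**Figure D5:**
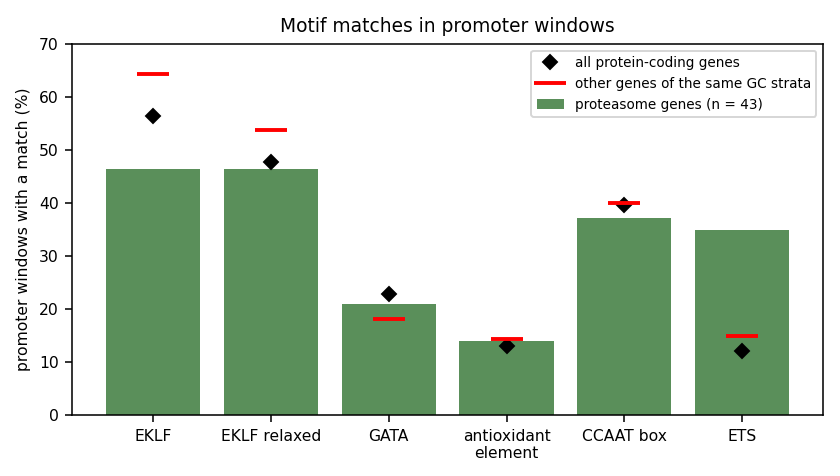
Share (%) of promoter windows with at least 1 match to each motif on either strand. Green bars are the 43 proteasome windows, black diamonds all 17274 windows and red dashes other windows of the same GC strata. The ETS bar (34.9%) stands above its marks (12.1% and 15.0%), and the EKLF bar (46.5%) below its marks (56.4% and 64.3%).

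Of 35 further genes of the ubiquitin and proteasome pathway, 34 were found in the gene table, and Paaf1 was not. A WT region was present at 22 (33.5% of all genes had one), a Nan/+ region at 20 (37.5% of all genes), both at 15 (23.5%) and an overlapping pair at 12 (13.3%). WT regions lay at a gene end in 21 of these genes (21.3% of all genes) and Nan/+ regions in 11 (16.3%). Nfe2l1, the factor that raises proteasome gene expression when the proteasome is impaired, had 1 WT region and no Nan/+ region, and its relative Nfe2l2 had 7 WT and 8 Nan/+ regions. The polyubiquitin gene Ubb had 1 WT region and no Nan/+ region, and Uba1 and Uba6, which encode the activating enzymes, had 1 WT region each. Adrm1, a ubiquitin receptor of the proteasome, had 1 Nan/+ region and no WT region, and Fbxo7, which encodes a ubiquitin ligase component, had 5 Nan/+ regions and no WT region. Usp14, a deubiquitinase of the regulatory particle, had 1 WT and 4 Nan/+ regions, with an overlapping pair, and Pomp, which encodes the maturation factor of the core, had none.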

How the data were processed

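EKLF regions of WT and Nan/+ fetal liver came from 2 lists deposited by the authors, 1 per genotype, called per the file headers with HOMER on mm10 from 3 ChIP libraries against 2 distinct input libraries filling 3 places, with a q of 0.01, a fold of 4 and a DESeq2 step (false discovery rate 0.01, log2 fold 2). The submitters' processing notes list Bowtie2 2.1, SAMtools 1.1, bcl2fastq 2.17 and deepTools 3.5. The score deposited by the authors was 1 in every region, so it was not used. No interval or spread is given, since these lists hold no values per library. ChIP of other proteins, ATAC and inputs were not used here.

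Positions are printed counted from 1. Of 21900 protein-coding genes of the RefSeq table of GRCm38.p6, 269 not on chromosomes 1 to 19 or X and 108 on alternate loci were left out. A region belonged to every gene whose body or 10 kb flanks held its centre. Reference shares used 10 strata of gene length, or of window GC content, with the proteasome genes left out. Genes with an overlapping pair or with 3 or more regions in a list are given with positions, other genes by their counts. Positions at Psma4 and Psmc5 were added after their values were seen. The members and lists were chosen with earlier results of these data known. Counting was tested on simulated regions. Alternatives were flank sizes, assignment to the nearest gene, width limits, equal list lengths, narrower gene sets and stricter overlap. Python 3.11.15, numpy 2.4.6, pandas 2.3.3 and matplotlib 3.10.9 were used.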

Additional observations from a re-analysis of the deposited data

How the results depend on the processing

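Of 71 alternatives computed, 54 stayed within 1.5 times of the reported value. With 50 kb flanks, 32 proteasome genes had regions in both lists and 6 in WT alone, the regions numbered 88 in WT and 104 in Nan/+, and 20 WT regions overlapped a Nan/+ region. Limited to 1 kb around gene ends, 16 genes had a Nan/+ region, 9 both, 7 Nan/+ alone and 6 an overlapping pair. Without Nan/+ regions at the minimum width, 28 Nan/+ regions remained and 6 genes had Nan/+ alone, and with equal list lengths 7 did. A smaller set by construction held the 34 alpha, constitutive beta, ATPase and non-ATPase genes without Psma8. It kept Psmd5, Psmd9 and Psmd10, the chaperones of base assembly. In this set 19 genes had a WT region, 20 a Nan/+ region, 11 both and 6 an overlapping pair. A reciprocal overlap of 50% left 7 overlapping WT regions. For these alternative counts no share over all protein-coding genes at the same setting is given.

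No paired analysis was possible because the 3 libraries of a genotype were merged into 1 list, and leaving out a replicate could not be run for the same reason. The lists carry no depth or signal per region, so binding below the authors' calling thresholds is not seen. Windows were lacking for 8 of 51 genes, and no genome sequence was used, so motifs outside the windows were not examined.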
